A study of Drosophila melanogaster with 12 samples.

Results

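The RNA of whole virgin female flies that carry tko25t was compared with that of wild-type females. Of the 12 Affymetrix Drosophila Genome 2.0 arrays in the series, 3 hold mutant and 3 hold wild-type females. Members were taken from the sample titles alone, the 3 arrays titled as female tko25t mutants against the 3 titled as female wild type. The mutant females were 1-day-old offspring of homozygous Canton S tko25t mothers and Oregon R tko25t fathers, so that mothers and daughters were both mutant. The wild-type females were offspring of the same cross between unmutated Canton S and Oregon R flies, of the same age and raised on the same medium, and flies of both genotypes were therefore hybrids of the 2 strains. Each array held RNA of its own group of flies from 1 of 3 independent crosses, with no pooling across arrays. The remaining 6 arrays hold males of the same genotypes and serve here only to show where the female response differed.

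The gene tko lies on the X chromosome and encodes protein S12 of the small subunit of the mitochondrial ribosome, which translates the few proteins encoded in mitochondrial DNA. All of these belong to the complexes of oxidative phosphorylation (OXPHOS). The tko25t allele is a missense mutation that limits mitochondrial protein synthesis in every tissue, and mutant flies are known for slow development, seizures after mechanical shock and low locomotor activity. A whole-fly array sums all tissues, so fewer cells of a type and less RNA per cell cannot be told apart in any value below.

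The deposited values are MAS5 signals, a brightness on a linear scale in which each array was brought to the same trimmed mean by the study. Before comparison 11.6, the median over all 12 arrays of the 25th percentile of signal, was added to each signal and the sum was put on the log2 scale. This offset pulls the differences of dim probe sets towards 0. Of 18769 probe sets other than controls, the 9759 with the highest mean signal over the 6 female arrays were tested with limma and Benjamini-Hochberg adjustment. A probe set is called, and is said to have risen or fallen in the mutant, at an adjusted p under 0.05. The signal of tko itself was 545, 466 and 467 in mutant females, against 533, 492 and 529 in wild-type females. These ranges overlap (log2 difference -0.07, SE 0.11, limma adjusted p = 0.802). A change of 1 amino acid need not alter the signal, so the value checks no label.

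The 6 arrays did not differ by genotype alone. Between arrays of 1 genotype the correlation of log2 signals ran from 0.941 to 0.987. Summed over 6 genes of larval serum and fat-body proteins, which are known as products of the larva, the signal was 7851, 510.1 and 2811 in mutant females, against 337, 279 and 1280.5 in wild-type females. Mutant replicates 1 and 3 and wild-type replicate 3 were the highest in their groups, and the ranges overlapped (exact permutation test, two-sided p = 0.2, where 3 arrays against 3 cannot give less than 0.1). The 10 muscle genes followed the same order, with sums of 40595, 20894 and 34839 in mutant females, against 26556, 25629 and 42478 in wild-type females (exact permutation test, two-sided p = 1). Transcripts of male organs set 1 array apart. The sum over 25 testis genes was 1715 in mutant replicate 1, against 384 to 631 on the other 5 female arrays and 27362 to 40662 on the male arrays. For 24 accessory gland genes it was 5295 in mutant replicate 1, 643 and 279 in the other mutant females, and 2584, 1566 and 398 in wild-type females, against 61559.6 to 90317 on the male arrays. Mutant replicate 1 was thus the highest for both male lists. The female markers were high on all 6 female arrays, with a sum of 78675 to 87982 over 18 eggshell and yolk genes in mutant females and 69495 to 88941 in wild-type females, against 330.5 to 5813 on the male arrays. The part of the larval and male transcripts in the results below was not tested beyond leaving out single arrays and adding the larval sum as a covariate.

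**Figure D1:**
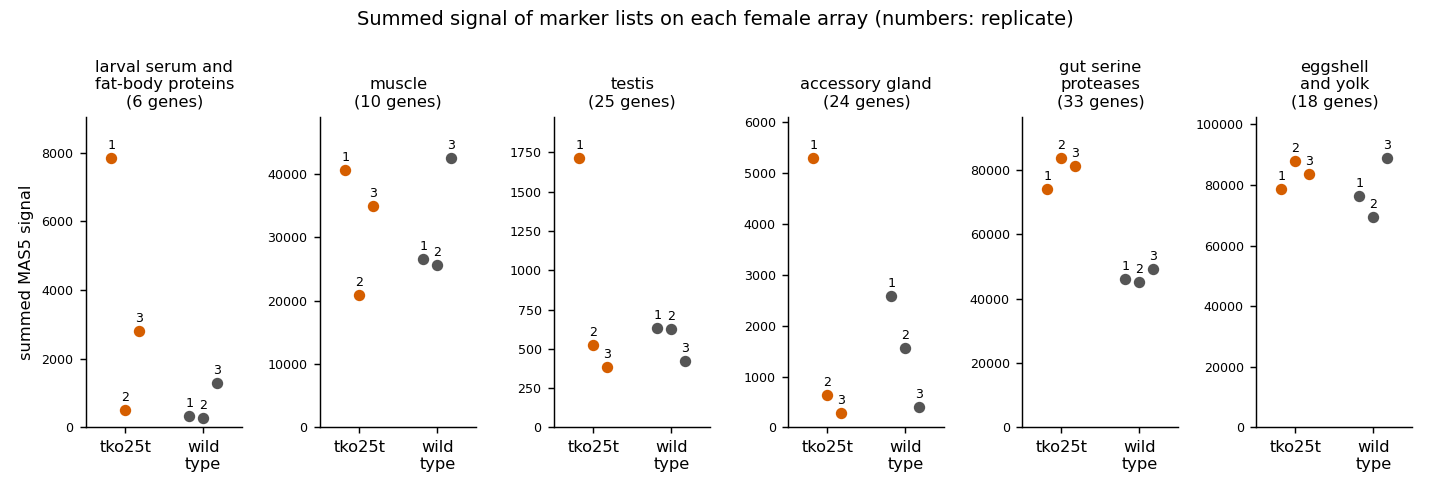
Summed MAS5 signal (linear axis from 0) of 6 marker lists on each female array, mutant arrays left and wild-type arrays right, with the replicate number above each point. Larval and muscle sums overlap between the genotypes, mutant replicate 1 is highest for the testis and accessory gland lists, and the gut serine protease sums of 74168 to 83772 in mutant females lie above those of 45140.0 to 49133 in wild-type females.

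In all, 199 probe sets were called. Of these, 140 were higher in mutant females (1.43% of those tested) and 59 were lower (0.605%). Both together were 2.04% of the 9759 tested, with 1408 at an unadjusted p under 0.05. Higher probe sets thus made up 70.4% of the calls, and 46.1% with the larval sum as a covariate (246 higher, 288 lower). On the log2 scale 78 of them rose and 27 fell by more than 1, and the smallest called difference was 0.49. Every called probe set separated the genotypes without overlap in signal, as 1979 of all probe sets tested did (10.2% of genes higher and 10.7% lower). By gene, with the brightest probe set standing for each, 126 genes rose and 45 fell of 7964 tested (1.58% and 0.565%, together 2.15%), and the median log2 difference of all genes was -0.05. The count moved with single arrays, to 125, 461 and 56 calls without the mutant replicate 1, 2 or 3 array and to 81 and 71 without wild-type replicates 1 or 2. Of the 199 probe sets, 52 (33 higher, 19 lower) were called with any 1 array left out, and all 199 kept their sign.

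The gene lists were written with earlier results of these data known. Several hold genes that the study had picked on these same samples. The shares called in the lists, and their medians and sums, are therefore not independent evidence. The share over all genes was 2.15%. The enzymes of the gut lumen made up the group with the most calls. Jonah proteases, trypsins and the Ser family are serine proteases that midgut cells secrete to digest dietary protein. Of 33 members, all bright enough to be tested, 16 rose, 0 fell and 17 did not pass, with a median log2 difference of 0.89, against -0.05 over all genes. The summed signal of the 33 was 74168, 83772 and 81158 in mutant females, against 46212, 45140.0 and 49133 in wild-type females. The 2 groups of sums did not overlap, and their means differed 1.70-fold (exact permutation test, two-sided p = 0.1, the smallest that 3 arrays against 3 allow). The list holds genes that the study had picked on these same samples, so neither value is independent evidence. The number of called members was 7 without mutant replicate 3 and 10 without wild-type replicate 1. Mutant replicate 2, the lowest mutant array for the larval and muscle sums, had the highest protease sum. In wild-type females the order was the other way, with replicate 3 the highest for the larval, muscle and protease sums alike. With the larval sum as a covariate 18 members were called.

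Jon25Bi had signals of 1659, 1609 and 1636 in mutant females, against 308, 189.9 and 367 in wild-type females. The 3 mutant arrays lay within a narrow band far above the wild-type ones (log2 difference 2.5, SE 0.21, limma adjusted p = 0.00155). Its neighbour Jon25Bii had 1549, 1757 and 2072 in mutant females, against 374, 305 and 504 in wild-type females, again without overlap (log2 difference 2.17, SE 0.19, limma adjusted p = 0.00156). CG18179, a protease of the same family, had 330.3, 192 and 358 in mutant females, against 51.2, 52.5 and 58.8 in wild-type females. The lowest mutant array lay above every wild-type array (log2 difference 2.17, SE 0.22, limma adjusted p = 0.00316). The signals of Jon99Fi were 1545, 2693 and 1524 in mutant females, against 560.0, 377 and 326 in wild-type females (log2 difference 2.14, SE 0.26, limma adjusted p = 0.00744). Among the trypsins, epsilonTry stood out with 4543, 5409 and 5450.1 in mutant females, against 2156, 2095 and 1776 in wild-type females (log2 difference 1.35, SE 0.12, limma adjusted p = 0.00156), and thetaTry rose by 1.05. Very bright members of the Jonah group also rose. Jon65Aiv had 7141, 7893 and 7500.1 in mutant females, against 4062, 3849 and 4199.6 in wild-type females (log2 difference 0.89, SE 0.09, limma adjusted p = 0.00281), and yip7 had 5961, 7678 and 6186 in mutant females, against 3444, 2984 and 2715 in wild-type females (log2 difference 1.11, SE 0.13, limma adjusted p = 0.00687). The other called members, Jon65Ai, Ser12, CG17239, CG18180, Ser8, CG7542, Jon65Aiii and Jon99Ci, had log2 differences of 0.79 to 1.56. The brightest trypsins did not pass the test, with alphaTry at 0.22 (adjusted p = 0.29) and betaTry at 0.35 (adjusted p = 0.17). With any 1 array left out, Jon25Bi, Jon25Bii, CG18179, Jon99Fi, epsilonTry, Jon65Aiv and yip7 stayed called. The call was lost for thetaTry without array mutant 3 or wild-type 2 (adjusted p up to 0.0648), Jon65Ai without array mutant 3 (adjusted p = 0.0647), Ser12 without array mutant 1 or 3 or wild-type 1 or 2 (adjusted p up to 0.138), CG17239 without array mutant 3 or wild-type 1 or 2 (adjusted p up to 0.0717), CG18180 without array mutant 3 or wild-type 1 (adjusted p up to 0.0927), Ser8 without array mutant 3 or wild-type 1 (adjusted p up to 0.0626), CG7542 without array mutant 3 or wild-type 1 (adjusted p up to 0.14), Jon65Aiii without array mutant 3 or wild-type 2 (adjusted p up to 0.0566) and Jon99Ci without array mutant 1 or 3 or wild-type 1 or 2 (adjusted p up to 0.135).

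**Figure D2:**
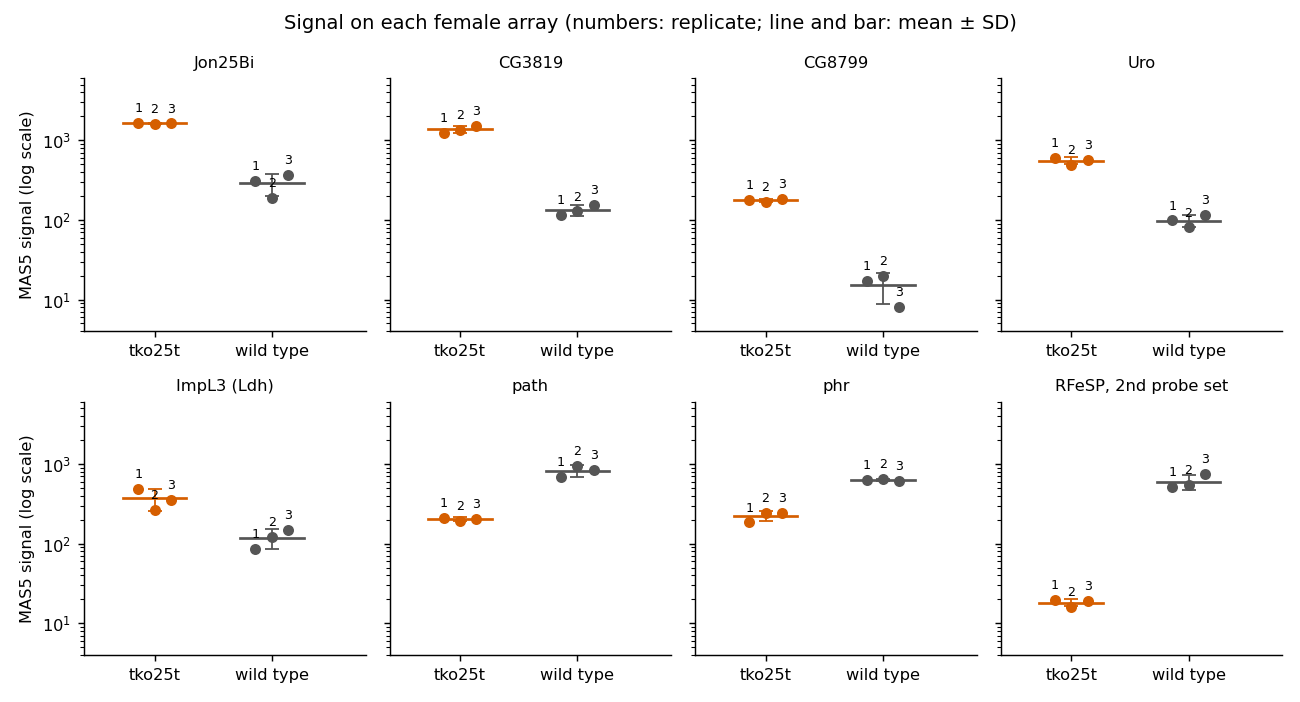
MAS5 signal (log axis) of 8 genes on each female array, tko25t left and wild type right, with the replicate number above each point, the mean as a line and the SD (n = 3) as a bar. Jon25Bi, CG3819, CG8799, Uro and ImpL3 are higher in all 3 mutant females, and path, phr and the dimmer RFeSP probe set are lower, with no overlap in any of the 8.

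Other digestive enzymes rose as well. Of 10 lipases tested (18 measured), which split dietary or stored fat, 3 rose and 0 fell (30.0%, against 2.15% of all genes). Their median log2 difference was 0.56. CG17192 had signals of 353, 368 and 311 in mutant females, against 15.6, 34.9 and 7.3 in wild-type females. The wild-type signals were near the background of the arrays and the mutant ones were not (log2 difference 3.62, SE 0.30, limma adjusted p = 0.00131). CG6271 and CG6283, which lie beside it in the gene order, rose by 1.71 (adjusted p = 0.00967) and 1.07 (adjusted p = 0.0161). CG5966 had a log2 difference of 1.20 that did not pass (adjusted p = 0.104). Among 5 tested genes of secreted endonucleases, which cut DNA and RNA, 2 rose (40.0%, against 2.15% of all genes). The signals of CG3819 were 1236, 1369 and 1519 in mutant females, against 115, 128 and 155 in wild-type females. All 3 mutant arrays lay far above the wild-type ones, and the adjusted p was the lowest of all genes by their brightest probe set (log2 difference 3.27, SE 0.14, limma adjusted p = 5.90e-05). Its neighbour CG6839 had 218, 294 and 297 in mutant females, against 74.3, 73.9 and 78 in wild-type females (log2 difference 1.68, SE 0.14, limma adjusted p = 0.00156). LysX, a lysozyme of the gut, had 162, 216 and 181 in mutant females, against 27.5, 15.6 and 37.2 in wild-type females (log2 difference 2.40, SE 0.23, limma adjusted p = 0.00212). Of the 7 tested genes of lysozymes, peritrophins and gut amidases it rose together with Peritrophin-15a (28.6% called, against 2.15% of all genes). Peritrophin-15a, of the matrix that lines the midgut, had 1027, 863 and 1203 in mutant females, against 342, 282 and 423 in wild-type females (log2 difference 1.54, SE 0.18, limma adjusted p = 0.00548). The alkaline phosphatases Alp10, Alp9 and Alp6 rose by 1.79, 1.47 and 0.72. They were in no list and were named from the calls, and members of the family that fell or were not called were not counted. None of 5 tested lysosomal alpha-mannosidases, which trim sugars from glycoproteins, was called, though their median difference was 1.06. The nearest was LManV, with 964, 766 and 1207 in mutant females, against 267, 402 and 567 in wild-type females (log2 difference 1.27, SE 0.27, limma adjusted p = 0.0618). CG17192, CG3819, CG6839, LysX, Peritrophin-15a and Alp10 stayed called in all 6 fits with 1 array left out. Leaving out 1 array ended the call of CG6271 without array mutant 3 (adjusted p = 0.0647), CG6283 without array mutant 1 or 3 or wild-type 1 or 2 (adjusted p up to 0.0816), Alp9 without array mutant 3 (adjusted p = 0.0647) and Alp6 without array mutant 1 or 3 or wild-type 1, 2 or 3 (adjusted p up to 0.21).

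**Figure D3:**
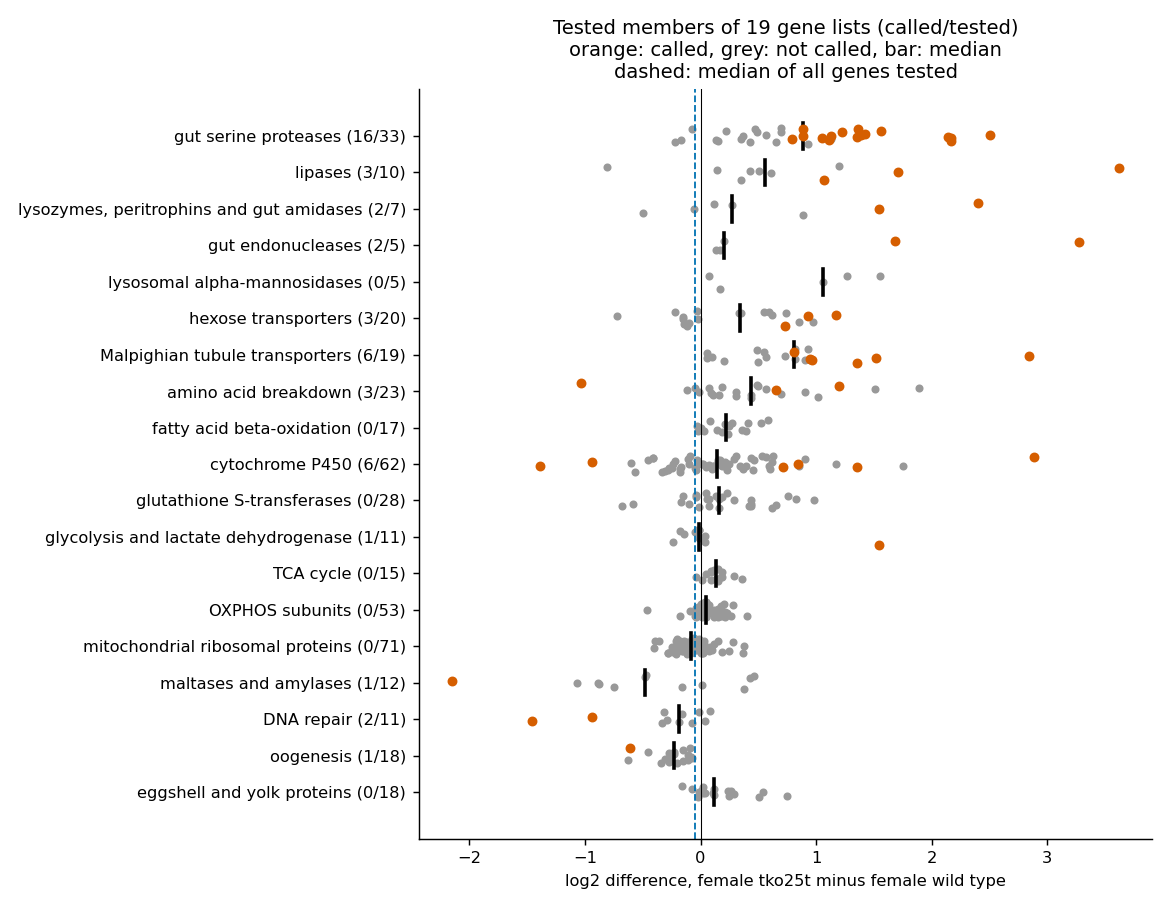
Log2 difference (tko25t minus wild type) of each tested member of 19 gene lists, with called members in orange, others in grey, the list's median as a bar and the median of all genes, -0.05, as a dashed line. The medians of the protease, lipase and transporter lists lie to the right of the dashed line, with 16 of 33 proteases called, while the 53 OXPHOS subunits and 71 mitochondrial ribosomal proteins cluster around 0 with 0 called.

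Genes of carbohydrate enzymes and sugar transporters did not share one direction. Maltases, which split disaccharides, and amylases had a median log2 difference of -0.48 over 12 tested members. Of these, 1 fell and 0 rose (8.33%, against 2.15% of all genes). This was Mal-B1, with signals of 229, 52.1 and 107 in mutant females, against 490.2, 561 and 538 in wild-type females. The ranges did not overlap, but the mutant replicates varied widely among themselves (log2 difference -2.15, SE 0.41, limma adjusted p = 0.0423). The nearest other member was Mal-A5, with 478, 559 and 522 in mutant females, against 724, 743 and 703 in wild-type females (log2 difference -0.47, SE 0.10, limma adjusted p = 0.0642). Of 20 tested hexose transporters 3 rose and 0 fell, and the median was 0.34. CG7882 had 652, 539.8 and 707 in mutant females, against 212, 262 and 363 in wild-type females (log2 difference 1.17, SE 0.20, limma adjusted p = 0.0257). CG15408 and CG15406 rose by 0.93 (adjusted p = 0.0491) and 0.73 (adjusted p = 0.0426). Single arrays decided the call of Mal-B1 without array mutant 3 or wild-type 1, 2 or 3 (adjusted p up to 0.191), CG7882 without array mutant 1 or 3 or wild-type 1 or 2 (adjusted p up to 0.145), CG15408 without array mutant 1 or 3 or wild-type 1 or 2 (adjusted p up to 0.246) and CG15406 without array mutant 1 or 3 or wild-type 1, 2 or 3 (adjusted p up to 0.232).

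Genes of the Malpighian tubule, the fly kidney, also rose. The list of organic anion and ion transporters was built in part from genes that the study had picked on these same samples, so its direction is not independent evidence. Such genes also stand in other lists, among them those of gut serine proteases, lysozymes and peritrophins, endonucleases, lipases and alpha-mannosidases. The same holds for hexose transporters, cytochrome P450 genes, amino acid breakdown and transport, DNA repair and immunity. Of the 19 members of the organic anion and ion transporter list, all tested, 6 rose and 0 fell (31.6%, against 2.15% of all genes). Their median log2 difference was 0.81. The signals of CG8799, an ABC transporter gene, were 178, 168 and 182 in mutant females, against 17.3, 20.0 and 8 in wild-type females. Wild-type signals were close to the background and mutant signals were about equal to each other (log2 difference 2.84, SE 0.20, limma adjusted p = 5.76e-04). MFS3, a member of the major facilitator superfamily, had 144, 95 and 137 in mutant females, against 33.7, 32 and 41.6 in wild-type females (log2 difference 1.52, SE 0.18, limma adjusted p = 0.00717). CG30016, MFS15, Oatp58Db and Oatp58Da rose by 1.35, 0.96, 0.95 and 0.81. Uro encodes urate oxidase, which breaks down uric acid in the tubule. It had signals of 602, 494 and 568 in mutant females, against 98.5, 80.5 and 115 in wild-type females, with a wide gap between the genotypes (log2 difference 2.38, SE 0.15, limma adjusted p = 3.75e-04). It was the only 1 of 6 tested genes of purine and urate breakdown to be called (16.7%, against 2.15% of all genes). The next, the adenosine deaminase gene Adgf-A, had 230.5, 180.5 and 212 in mutant females, against 154, 128 and 123 in wild-type females (log2 difference 0.58, SE 0.14, limma adjusted p = 0.0928). With any 1 array left out, CG8799 and Uro stayed called. The call was lost for MFS3 without array mutant 3 (adjusted p = 0.0566), CG30016 without array mutant 3 (adjusted p = 0.0798), MFS15 without array mutant 3 or wild-type 2 (adjusted p up to 0.0824), Oatp58Db without array mutant 3 (adjusted p = 0.0566) and Oatp58Da without array mutant 1 or 3 or wild-type 1 or 2 (adjusted p up to 0.184).

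No OXPHOS gene was called by its brightest probe set, and since 2.15% of all genes were called, none or 1 such gene in a list of this size is near the background. Of 53 tested nuclear-encoded subunits 0 were called by limma, 2 had an unadjusted p under 0.05, and the log2 differences ran from -0.46 to 0.40 with a median of 0.05. None of 71 mitochondrial ribosomal protein genes was called either (7 at an unadjusted p under 0.05, median -0.08, range -0.40 to 0.38), nor any of 36 genes of cytosolic ribosomal proteins (1 at an unadjusted p under 0.05, median -0.02) or of 15 of the TCA cycle (0 at an unadjusted p under 0.05, median 0.13). The exception was RFeSP, the Rieske iron-sulfur protein of complex III, for which the array has 2 probe sets. The brighter had 3076, 2446 and 2986 in mutant females, against 2479, 2638 and 3432 in wild-type females, and the ranges overlapped (log2 difference 0.00, SE 0.15, limma adjusted p = 0.999). The dimmer, which the study assigns to 1 of the mRNAs of the gene, had 19.5, 16 and 19 in mutant females, against 511, 548 and 745 in wild-type females. The mutant signals were close to the background on all 3 arrays (log2 difference -4.35, SE 0.16, limma adjusted p = 4.77e-05), and this was the largest difference in log2 of any probe set tested. It stayed called with any 1 array left out, at adjusted p up to 0.00112. Of 11 tested mitochondrial chaperones and proteases 0 were called (2 at an unadjusted p under 0.05), with the protease subunit Afg3l2 highest at 0.56 (adjusted p = 0.118).

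Around pyruvate, single enzymes were called and most members of their pathways were not. Of 11 tested genes of glycolysis 1 rose (9.09%, against 2.15% of all genes). This was the gene of lactate dehydrogenase, ImpL3 (Ldh), which makes lactate from pyruvate and so regenerates oxidized NAD. Its signals were 488, 267 and 356 in mutant females, against 85.5, 122 and 150.2 in wild-type females. The lowest mutant array lay above the highest wild-type one (log2 difference 1.54, SE 0.25, limma adjusted p = 0.0241). The other 10 glycolytic genes lay between -0.24 and 0.04. Pepck2 encodes 1 of 2 phosphoenolpyruvate carboxykinases, enzymes at the start of gluconeogenesis, and had 34.3, 20.6 and 21.7 in mutant females, against 95.9, 104 and 141 in wild-type females (log2 difference -1.76, SE 0.21, limma adjusted p = 0.00636). The far brighter Pepck1 differed the other way, with 5131, 1942 and 4934 in mutant females, against 1227, 685 and 1106 in wild-type females, but fell short of the threshold (log2 difference 1.90, SE 0.38, limma adjusted p = 0.0527). No gene of 17 in fatty acid beta-oxidation was called (5 at an unadjusted p under 0.05), with a median of 0.22 and the peroxisomal oxidase Acox3 nearest, at 662, 570.3 and 662 in mutant females, against 398, 390.4 and 469.9 in wild-type females (log2 difference 0.58, SE 0.12, limma adjusted p = 0.0547). Of 8 tested genes of fatty acid synthesis 1 was called (12.5%, against 2.15% of all genes). It was the elongase gene CG17821, which rose by 0.92 (adjusted p = 0.0363). Pepck2 stayed called in all 6 fits with 1 array left out. Leaving out 1 array ended the call of ImpL3 without array mutant 1 or 3 or wild-type 1 or 2 (adjusted p up to 0.119) and CG17821 without array mutant 1, 2 or 3 or wild-type 1 or 2 (adjusted p up to 0.169).

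Amino acid metabolism had changes in both directions. Of 23 tested genes of amino acid breakdown 2 rose and 1 fell (13.0%, against 2.15% of all genes). Their median log2 difference was 0.44. Gnmt, the glycine N-methyltransferase that disposes of methyl groups, had signals of 154, 126 and 140.4 in mutant females, against 43.8, 52.6 and 69 in wild-type females (log2 difference 1.20, SE 0.17, limma adjusted p = 0.0128). BckdhB, a subunit of the enzyme that commits branched-chain amino acids to breakdown, had 1585, 1297 and 1629 in mutant females, against 883, 945 and 1018 in wild-type females (log2 difference 0.65, SE 0.12, limma adjusted p = 0.0369). Oat, ornithine aminotransferase, fell, with 348, 219 and 274 in mutant females, against 580.1, 488 and 664 in wild-type females (log2 difference -1.03, SE 0.18, limma adjusted p = 0.0344). The next member, nemy, had a log2 difference of 0.50 (adjusted p = 0.054). The study describes nemy as a mitochondrial glutaminase, but the symbol also stands for a cytochrome b561 gene. Its place in this list is therefore uncertain. Of 12 tested amino acid transporters 1 fell and 1 rose (16.7%, against 2.15% of all genes). The fall was that of path, a transporter known in the fly for its part in growth control, with 213, 194 and 206 in mutant females, against 690.2, 956 and 844 in wild-type females. The mutant signals were nearly equal to each other and far below the wild-type ones (log2 difference -1.95, SE 0.14, limma adjusted p = 5.61e-04). CG8785 rose by 1.06 (adjusted p = 0.0402). Leaving out any 1 array kept the call of path. Single arrays decided the call of Gnmt without array mutant 3 or wild-type 1 or 2 (adjusted p up to 0.0824), BckdhB without array mutant 1 or 3 or wild-type 1 or 2 (adjusted p up to 0.215), Oat without array mutant 3 or wild-type 1, 2 or 3 (adjusted p up to 0.168) and CG8785 without array mutant 1 or 3 or wild-type 1 or 2 (adjusted p up to 0.179).

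Detoxification enzymes changed singly. Of 62 tested cytochrome P450 genes (81 measured) 4 rose and 2 fell (9.68%, against 2.15% of all genes), and the median was 0.14. Cyp6a23 had signals of 1002, 331 and 901 in mutant females, against 84.9, 85.9 and 73.2 in wild-type females. Mutant replicate 2 was well below the other mutant females and above every wild-type one (log2 difference 2.88, SE 0.37, limma adjusted p = 0.0091). Its neighbour Cyp6a17, known for a role in temperature preference, fell, with 144, 83.4 and 91.3 in mutant females, against 319, 293 and 264 in wild-type females (log2 difference -1.39, SE 0.19, limma adjusted p = 0.0123). In the same cluster Cyp6a8 rose by 1.35 and Cyp6a20 by 0.71. The paralogues of this cluster are alike in sequence, and cross-hybridization between their probe sets was not tested. Elsewhere Cyp4d1 rose by 0.84 and Cyp6t1 fell, with a log2 difference of -0.94. Of 20 UDP-glucuronosyltransferases 1 rose (5.0%). This was Ugt35C1, with 341, 136 and 224 in mutant females, against 62.3, 74.3 and 53.2 in wild-type females (log2 difference 1.63, SE 0.29, limma adjusted p = 0.0328). Of 28 glutathione S-transferases 0 were called by limma (6 at an unadjusted p under 0.05), and of 13 antioxidant enzymes also 0 (1 at an unadjusted p under 0.05). With 2.15% of all genes called, 0 in lists of these sizes is near that share. The call was lost for Cyp6a23 without array mutant 3 (adjusted p = 0.0566), Cyp6a17 without array mutant 3 or wild-type 1 or 2 (adjusted p up to 0.0798), Cyp6a8 without array mutant 3 or wild-type 1 or 2 (adjusted p up to 0.0794), Cyp6a20 without array mutant 3 or wild-type 1 or 2 (adjusted p up to 0.1), Cyp4d1 without array mutant 3 or wild-type 1 or 2 (adjusted p up to 0.0985), Cyp6t1 without array mutant 3 or wild-type 1 or 2 (adjusted p up to 0.0617) and Ugt35C1 without array mutant 3 or wild-type 1, 2 or 3 (adjusted p up to 0.164).

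Of the immune genes, 5.26% of the peptides and 9.52% of the receptors were called, against 2.15% of all genes. Of 19 tested genes of antimicrobial and immune-induced peptides 1 fell and 0 rose, with a median of 0.02. Drsl4, of the drosomycin family of antifungal peptides, had signals of 402, 363 and 367 in mutant females, against 1481, 1711 and 1706 in wild-type females. Arrays of a genotype were nearly equal and the genotypes stood far apart (log2 difference -2.08, SE 0.10, limma adjusted p = 1.56e-04). Drosomycin-like Drsl5 had a difference of -0.77 (adjusted p = 0.143) and the immune-induced gene BaraA2 (IM10) one of 1.06 (adjusted p = 0.0521). Of 21 receptors and recognition proteins of immunity and blood cells 2 rose and 0 fell, with a median of 0.33. NimC1, a phagocytosis receptor of blood cells, had 226, 157 and 254 in mutant females, against 80.5, 70.0 and 69.9 in wild-type females (log2 difference 1.37, SE 0.18, limma adjusted p = 0.00995). CG12780, related to proteins that bind bacterial cell walls, had 172, 110.5 and 121 in mutant females, against 44.7, 46.4 and 41.4 in wild-type females (log2 difference 1.37, SE 0.18, limma adjusted p = 0.00916). Among other blood cell markers Hml and eater had differences of 0.36 and 0.31 and were not called. Drsl4 stayed called in all 6 fits with 1 array left out. Leaving out 1 array ended the call of NimC1 without array mutant 3 or wild-type 2 (adjusted p up to 0.0591) and CG12780 without array mutant 3 (adjusted p = 0.0509).

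Of the ovary transcripts, which make up much of the RNA of an adult female, 0.0% of the eggshell and yolk genes and 5.56% of the oogenesis genes were called, against 2.15% of all genes. None of 18 eggshell and yolk genes was called by limma (3 at an unadjusted p under 0.05), with a median of 0.12, and the sums gave an exact permutation p of 0.5 (two-sided). Of 18 tested oogenesis genes, 1 fell, and the median difference was -0.23, or 0.10 with the larval sum as a covariate. The summed signal of the oogenesis list was 13587, 19499 and 15351 in mutant females, against 19908, 19482 and 17125 in wild-type females, so that mutant replicate 2 lay with wild-type replicates 1 and 2, as in the larval and muscle sums. Nlp, a nucleoplasmin that handles sperm and egg chromatin, had 1413, 1728 and 1563 in mutant females, against 2316, 2435 and 2445 in wild-type females (log2 difference -0.61, SE 0.10, limma adjusted p = 0.0266). The transposon-silencing gene piwi had 321, 392 and 284 in mutant females, against 570.2, 591 and 406 in wild-type females and did not pass (log2 difference -0.63, SE 0.18, limma adjusted p = 0.14). Of 11 tested DNA repair genes 2 fell and 0 rose (18.2%, against 2.15% of all genes). These were phr and gkt, which the study had picked on these same samples, so the count is not independent evidence. The photolyase gene phr, whose enzyme repairs ultraviolet damage with light, had signals of 185, 243 and 241 in mutant females, against 639.7, 646 and 610.3 in wild-type females (log2 difference -1.46, SE 0.13, limma adjusted p = 0.00156). A dimmer second probe set of phr had 82.2, 93.8 and 85.8 in mutant females, against 255, 209 and 203 in wild-type females, in the same direction and also without overlap (log2 difference -1.24, SE 0.13, limma adjusted p = 0.00357). gkt, which removes topoisomerase stuck on DNA, had 134, 186 and 128 in mutant females, against 321, 330.3 and 236 in wild-type females (log2 difference -0.94, SE 0.18, limma adjusted p = 0.0483), and its dimmer probe set had 19.7, 29.9 and 11.4 in mutant females, against 112, 123 and 79.7 in wild-type females (log2 difference -1.89, SE 0.25, limma adjusted p = 0.0104), a call that was lost without wild-type array 1 or 2 (adjusted p up to 0.0642). Other nuclear genes that fell were l(1)10Bb, the fly relative of a splicing factor, with 217, 255 and 199 in mutant females, against 527, 571 and 478 in wild-type females (log2 difference -1.19, SE 0.13, limma adjusted p = 0.00388), and Nop60B, the pseudouridine synthase of the nucleolus, by a log2 of -0.60 and, in a dimmer probe set, of -1.50. Leaving out any 1 array kept the call of phr and l(1)10Bb. Single arrays decided the call of Nlp without array mutant 1 or 3 or wild-type 1, 2 or 3 (adjusted p up to 0.158), gkt without array mutant 1 or 3 or wild-type 1 or 2 (adjusted p up to 0.236) and Nop60B without array mutant 1 or 3 or wild-type 1, 2 or 3 (adjusted p up to 0.229).

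Some of the largest differences lay outside these groups. CG5953 had the largest rise of any gene on the scale of log2(signal + 11.6), with signals of 5587, 4934 and 5034 in mutant females, against 284, 575 and 324 in wild-type females (log2 difference 3.74, SE 0.23, limma adjusted p = 3.75e-04). A dimmer probe set of CG5953 had 202, 229 and 244 in mutant females, against 266, 229.5 and 193 in wild-type females, and its ranges overlapped (log2 difference -0.02, SE 0.14, limma adjusted p = 0.975), so the rise was seen with 1 of the gene's 2 probe sets. The ratio of mean signals was 13.2 for the brighter one, below the 17.9 of CG17192 and the 15.7 of narya, whose low wild-type signals the offset pulls closer to the mutant ones. CG12057, a gene on the X chromosome, had 2408, 3141 and 2574 in mutant females, against 723, 426 and 412 in wild-type females (log2 difference 2.39, SE 0.22, limma adjusted p = 0.00169). CG15533, of the sphingomyelinase family that cleaves membrane lipids, had 161, 139.6 and 231 in mutant females, against 9.7, 26.1 and 46.8 in wild-type females (log2 difference 2.36, SE 0.35, limma adjusted p = 0.0165). narya, a RING-finger gene of meiotic recombination, had 49.5, 92.6 and 63.1 in mutant females, against 8.9, 2.3 and 1.9 in wild-type females. These are low signals on both sides (log2 difference 2.32, SE 0.27, limma adjusted p = 0.00636). Fst, known as frost and induced after cold, had 364, 219 and 258 in mutant females, against 68.3, 53.8 and 100.1 in wild-type females (log2 difference 1.77, SE 0.24, limma adjusted p = 0.0113), and Cpn, a calcium-binding protein of photoreceptors, had 366, 428 and 448 in mutant females, against 93, 110.3 and 201 in wild-type females (log2 difference 1.60, SE 0.25, limma adjusted p = 0.0194), while trp, the light-gated channel of the same cells, was at -0.11 (adjusted p = 0.771). CG14499 and CG8299, a trypsin-like protease gene, rose by 2.22 and 1.84. With any 1 array left out, CG5953, CG12057, narya and CG8299 stayed called. The call was lost for CG15533 without array mutant 3 or wild-type 2 (adjusted p up to 0.0927), Fst without array mutant 3 or wild-type 1 (adjusted p up to 0.0647), Cpn without array mutant 3 or wild-type 1 or 2 (adjusted p up to 0.114) and CG14499 without array mutant 1 or 3 or wild-type 1 or 2 (adjusted p up to 0.14).

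Among the falls, CG1648 had signals of 874, 912 and 936 in mutant females, against 3204, 3593 and 4113 in wild-type females (log2 difference -1.98, SE 0.11, limma adjusted p = 2.49e-04). The carboxylesterase gene alpha-Est10 had 66.3, 65.5 and 57.9 in mutant females, against 244, 196 and 188 in wild-type females (log2 difference -1.56, SE 0.14, limma adjusted p = 0.00158). Npc2g, of the sterol-binding NPC2 family, had 446, 378 and 591 in mutant females, against 1071, 1087 and 1594 in wild-type females, with no overlap (log2 difference -1.38, SE 0.21, limma adjusted p = 0.0155). Iris, a gene that derives from the envelope gene of a retrovirus, had 251, 266 and 264 in mutant females, against 588, 535 and 732 in wild-type females (log2 difference -1.20, SE 0.13, limma adjusted p = 0.00436). teq (Tequila), a multidomain serine protease, has probe sets that were called in opposite directions. The brighter had 258, 266 and 317 in mutant females, against 573, 548 and 676 in wild-type females (log2 difference -1.06, SE 0.13, limma adjusted p = 0.00687), and the dimmer had 60.2, 64.7 and 78.9 in mutant females, against 17.6, 8.5 and 8.8 in wild-type females, without overlap (log2 difference 1.79, SE 0.21, limma adjusted p = 0.00681). The gene as a whole therefore has no single direction here, though by its brighter probe set it is counted among the falls. For CR44101, a non-coding RNA, signals were 5.8, 12 and 9.4 in mutant females, against 61.1, 67.9 and 56.9 in wild-type females, and the mutant ones lay at the background (log2 difference -1.84, SE 0.19, limma adjusted p = 0.00357). phu, CG32523 and CG18343 had log2 differences of -1.47, -1.65 and -1.03. CG1648, alpha-Est10, Iris, teq, CR44101, phu and CG18343 stayed called in all 6 fits with 1 array left out. Leaving out 1 array ended the call of Npc2g without array mutant 1 or wild-type 2 (adjusted p up to 0.0543) and CG32523 without array mutant 3 or wild-type 1 (adjusted p up to 0.0794).

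Genes of the larval list and Obp99b had large differences that were not called. Fbp1, the receptor through which the fat body takes up larval serum proteins, had signals of 1536, 50.4 and 334 in mutant females, against 5.7, 5.5 and 45.8 in wild-type females (log2 difference 3.64, SE 1.05, limma adjusted p = 0.148), and the odorant-binding gene Obp99b had 3487, 168 and 1596 in mutant females, against 61.5, 58 and 189 in wild-type females (log2 difference 3.32, SE 0.98, limma adjusted p = 0.16). Mutant replicate 2 lay far below the other 2 mutant arrays in both and close to the wild-type females. Lsp2, a larval storage protein, had 1858, 166 and 771 in mutant females, against 189, 187 and 661 in wild-type females and the ranges overlapped (log2 difference 1.09, SE 0.82, limma adjusted p = 0.595). All 6 genes of the larval list had positive differences, with a median of 2.21, and 0 were called by limma although 5 had an unadjusted p under 0.05. Of 27 cuticle genes, 7 heat-shock genes, 3 Turandot genes, 24 odorant-binding genes, 10 muscle genes, 16 genes of insulin, TOR and AMPK signalling, 10 of the clock and takeout families and 9 of sex determination also 0 were called. Unadjusted p under 0.05 was reached by 4, 0, 1, 7, 0, 3, 3 and 4 of them in that order. With 2.15% of all genes called, 0 in lists of these sizes is near that share. Neither Hsp22 nor takeout itself was in these lists, so the counts do not cover them. Of sex determination, dsx, the switch gene of sexual differentiation, had 196, 181 and 219 in mutant females, against 119, 129 and 144 in wild-type females (log2 difference 0.56, SE 0.13, limma adjusted p = 0.0761), and fit, a female-specific fat-body gene, had 765, 921 and 957 in mutant females, against 354, 405 and 667 in wild-type females (log2 difference 0.92, SE 0.22, limma adjusted p = 0.0951). The clock gene Clk had 46.8, 78.8 and 84 in mutant females, against 46.3, 26.9 and 37.4 in wild-type females, and wild-type replicate 1 and mutant replicate 1 were nearly equal (log2 difference 0.74, SE 0.24, limma adjusted p = 0.204). With the larval sum as a covariate, an alternative added after seeing the data, 189 of the 199 calls stayed and 534 probe sets were called. Among the genes named above, CG14499, CG17821, CG8785 and Ugt35C1 were no longer called (adjusted p = 0.0577, 0.069, 0.0612 and 0.0512, in that order). The median then was 0.82 for the gut serine proteases and 0.52 for the Malpighian transporters, against 0.02 over all genes. It turned negative for the OXPHOS subunits (-0.20), the TCA cycle (-0.14), the cytochrome P450 genes (-0.04) and the antimicrobial peptides (-0.24). The same held for muscle (-0.45), pyruvate and PEP enzymes (-0.23), antioxidant enzymes (-0.09) and mitochondrial chaperones and proteases (-0.04). It turned positive for DNA repair (0.03), oogenesis (0.10) and insulin, TOR and AMPK signalling (0.01).

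Some called genes lay close together on the chromosome. In the gene order of RefSeq (Release 6), 43 of 170 called genes with a place in it (25.3%) had another called gene with at most 2 genes between them, and they formed 18 groups. Of 7755 tested genes that were not called, 508 (6.55%) had a called gene that near. In 14 of these groups all members rose, in 1 all fell, and in 3 both directions occurred. The largest held yip7, Jon65Aiv, Jon65Aiii, Jon65Ai and CG10472 on arm 3L, with log2 differences of 1.11, 0.89, 0.89, 1.56 and 0.56. On 2R, CG5773, CG5770 and CG5767 rose by 0.98, 1.43 and 1.65, and the 4 called Cyp6a genes formed a group in which Cyp6a17 alone fell. Similar sequence within such families can make probe sets share signal, which was not tested. By arm, called genes were 26 of 1299 on X (2.0%), 38 of 1442 on 2L (2.64%), 43 of 1631 on 2R (2.64%), 34 of 1540 on 3L (2.21%), 29 of 1959 on 3R (1.48%) and 0 of 54 on chromosome 4. Among the 100 protein-coding genes on either side of tko, a region linked to the mutation, 3 of 119 tested genes were called (2.52%). They were D2hgdh at 0.97, Cyp4d1 at 0.84 and Rala at -0.90.

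Most genes called in females leaned the same way in males. Of the 171 called genes, 153 (89.5%) had the same sign of difference in males, against 60.0% of all 7964 genes tested, and the male and female arrays may share crosses. In 140 of the 171 the difference was the larger in females. The 126 genes that rose had a median log2 difference of 1.05 in females and 0.58 in males, and the 45 that fell had -0.90 in females and -0.49 in males. The female values come from the arrays on which the genes were called, which favours larger ones. CG5953 had 3.74 in females and 3.70 in males, and Drsl4 had -2.08 and -2.08. For several gut genes the female value was the higher. Jon25Bi had 2.5 in females and 0.87 in males, CG18179 had 2.17 and -0.48, and Ser12 had 1.39 and -0.57. None of these 3 differences between the sexes passed its own test (limma interaction adjusted p = 0.316, 0.138 and 0.127). The protease list as a whole had a median of 0.29 in males with 0 members called for a difference between the sexes.

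**Figure D4:**
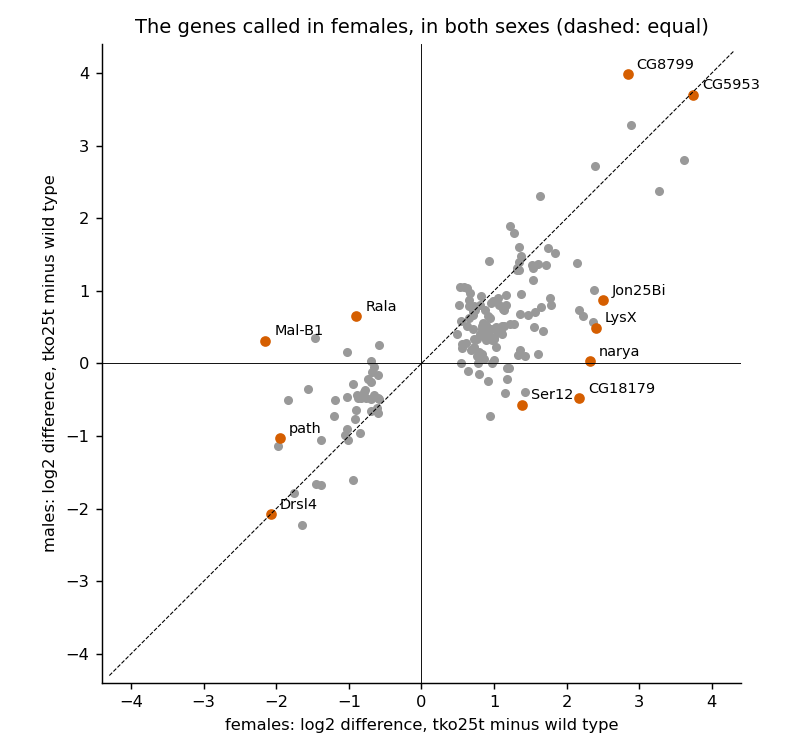
Log2 difference (tko25t minus wild type) of the 171 genes called in females, with females on the horizontal and males on the vertical axis and the dashed line marking equal values and the named genes in orange. Points in the lower left and upper right have the same sign in both sexes, as 153 do, and Rala lies in the upper left with -0.90 in females and 0.65 in males.

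The test of the difference itself, the female response minus the male response in a fit of all 12 arrays, called 12 of 9759 probe sets (0.123%), of which 8 had the lower value in females and 4 the higher, with 1296 at an unadjusted p under 0.05. Of the named genes, 1 was called both in females and for the difference. This was Rala, which encodes a small GTPase of vesicle traffic. Its signals were 355, 423 and 356 in mutant females, against 753, 819.5 and 588 in wild-type females. In males they were 348, 318 and 354 in mutant males, against 201, 208 and 229 in wild-type males. It thus fell in mutant females (log2 difference -0.90, SE 0.15, limma adjusted p = 0.0239) and had a log2 difference of 0.65 in males (limma interaction -1.55, SE 0.18, adjusted p = 0.00544). The difference between the sexes stayed called with any 1 of the 12 arrays left out. Its call in females was lost without array mutant 1 or 3 or wild-type 1 or 2 (adjusted p up to 0.14). In the male wild-type arrays 18S ribosomal RNA gave signals of 3895 to 4075 with the middle probe set, against 194 to 357 in mutant males, 94.7 to 189.6 in mutant females and 90.8 to 112 in wild-type females, and the part of this difference in the test of the sexes was not tested.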

How the data were processed

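Whole-fly RNA was hybridized to Affymetrix arrays, and per the labels and the deposited table each of 12 arrays holds 1 intensity per probe set: the MAS5 signal computed by the authors in GCOS and scaled per array. The number of arrays limits the precision. Groups came from the sample titles, the arrays of a genotype were separate groups of flies, and male and female arrays may share crosses. Of 18952 probe sets, 183 controls were left out and the 52% with the highest mean female signal were tested on log2(signal + 11.6) with limma 3.58.1 (R 4.3.3, eBayes with a variance trend) and Benjamini-Hochberg adjustment, with no covariate. The test of the sexes used all 12 arrays and an interaction term. The fit was tested on simulated data with the fitted spread, drawn without shifts shared by the probe sets of an array. It recovered 85% of changes of 1 in log2 and 100% of changes of 2, with 16 false calls. Of the probe sets, 13646 had 1 gene symbol in the annotation and 43 more (41 tested) were named from gene names in lists of the study. A further 402 had several symbols and 4678 none, and 13586 symbols were matched to RefSeq. The members and gene lists were chosen with earlier results of these data known. Genes are named if among the 15 largest called rises or falls without overlap, among up to 5 members of each list with the lowest adjusted p, discussed by the study for females, or called between the sexes. Other called genes were named after their values were seen. From the lists, 6 genes matched by a wrong older symbol were left out. Alternatives were another offset, filter, scaling and variance model, SAM with the settings of the methods, all 12 arrays, a replicate block, single arrays left out and a larval covariate. Figures were drawn with matplotlib 3.10.9.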

Additional observations from a re-analysis of the deposited data

Results flagged for a closer look

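A difference between the female and the male response passed its own test for 12 probe sets (limma interaction, 12 arrays). The values are the female minus the male log2 difference between mutant and wild type. Beside Rala, with -1.55, the female value was the lower for Sdic3 (-2.46), BtbVII (-2.01), bcn92 (-1.79), RpL37-1 (-1.39), Nop10 (-0.93) and a pair of probe sets with no gene name (-1.11 and -1.67). It was the higher for osk (2.20), CG15578 (1.79), CG9519 (1.37) and CG14605 (1.24). With each of the 12 arrays left out in turn, the calls of Rala, Sdic3, RpL37-1 and the unnamed probe set at -1.67 stayed in all 12 fits and that of BtbVII in 11. The others stayed in few, namely bcn92 in 4, CG14605 in 3, osk, Nop10 and the unnamed probe set at -1.11 in 2, and CG9519 and CG15578 in 1. Under quantile scaling osk (adjusted p = 0.0689), CG15578 (0.0578) and CG14605 (0.0578) were no longer called. Of these, Rala and the unnamed probe set at -1.67, with a log2 difference of -0.90 in females and 0.77 in males, were also called in females. For osk, a gene of the egg, the female difference was -0.27 and the male one -2.47. Its signals were 1731, 2714 and 2262 in mutant females, against 2694, 2631 and 2632 in wild-type females. In males they were far lower, at 6.6, 2.3 and 1.6 in mutants, against 102, 82.2 and 41.7 in wild type. Other egg genes also had negative median differences in males, -1.59 over 18 eggshell and yolk genes and -0.54 over 18 oogenesis genes. The part of such traces of egg transcripts on male arrays in the osk result was not tested. Sdic3, a sperm dynein gene, had signals of 44.5, 39.3 and 37.9 in mutant females, against 36.9, 28.3 and 33.4 in wild-type females, and of 352, 347 and 302 in mutant males, against 42.5, 40.7 and 42.1 in wild-type males.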

How the results depend on the processing

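The 199 calls in females became 130 with no filter on low signals, 333 with all 12 arrays in the fit, 534 with the larval covariate, and 56 to 461 with 1 array left out. The summed count of called list members, 56 genes in 42 lists, became 105 with the larval covariate and 18 to 113 with 1 array left out. For the gut serine proteases, 16 called members became 7 to 19 with 1 array left out. The 12 probe sets called between the sexes became 41 with 4 times the offset and 4 to 29 with 1 array left out. With the larval covariate, Lsp2 at -0.77 and TpnC41C at -0.49 were called lower in mutant females, against positive differences without it. The cause of these changes was not tested. Lsp2 is 1 of the 6 genes summed in that covariate, so its sign there is not an independent result. The methods' SAM settings called 296 probe sets, 227 higher and 69 lower, and 182 of the 199 were among them.

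Whether the replicate numbers pair the arrays is not settled, since the deviations of same-numbered arrays correlated at -0.045, 0.458 and 0.452, and 2 of 3 mutant arrays correlated best with their own number. A replicate block gave 323 calls, 94 called list members and 6 probe sets between the sexes, and 193 of the 199 calls stayed.

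Of 179 named and called probe sets, 43 kept their call in every alternative run. Another offset (197 and 204 calls), quantile scaling (176), equal medians (186), 50% fewer probe sets (163) and no variance trend (162) moved the count less, and the share of higher calls stayed between 68.7% and 71.5% in these, while the larval covariate brought it to 46.1%. With 3 arrays a genotype, the smallest called log2 difference was 0.49, and smaller ones were below what this comparison called.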
